A study of Mus musculus with 3 samples.

Results

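Nuclear receptors other than Nr5a2 and Nr0b2 were examined in laser-microdissected cells of the inflamed mouse pancreas. The members were all genes whose symbol is that of a retinoid, peroxisome proliferator-activated, thyroid hormone, estrogen, estrogen-related, progesterone, vitamin D, ROR or HNF4 receptor, or has the systematic form Nr with a number, a letter from a to h and a number. The rule used names and no measured value, and it gave 44 members among the 21150 genes that the array probes could be named for. Of these 44 genes, 25 had 1 probe and 19 had more, 66 probes in all.

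The study compared gene expression between ADM, duct and acinar cells. ADM stands for acinar-to-ductal metaplasia, a conversion of enzyme-secreting acinar cells towards a duct-like state. The ADM group was ADM cells, the duct group ductal cells and the acinar group acinar cells, all cut from frozen pancreas of 3 wild-type (WT) mice 48 h after caerulein pancreatitis, and no uninjured pancreas was among the groups. Caerulein, a peptide that mimics cholecystokinin, causes pancreatitis by overstimulating the acinar cells. Total RNA of each group was amplified and hybridised to 1 Agilent 1-colour array. The labels do not say if RNA of several mice was pooled for an array. With 1 array per group there was no replicate and no test, so every difference below describes these 3 arrays, and their number limits the precision of each value.

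Nuclear receptors are transcription factors, many of which bind a small lipophilic ligand such as a steroid, retinoic acid, an oxysterol, a bile acid or a fatty acid. Retinoid X receptors are the common dimer partners of the retinoic acid, thyroid hormone, vitamin D, PPAR, LXR and FXR receptors. Orphan receptors have no ligand or none that is generally accepted, and some, such as the Nr4a genes, are regulated mainly by how much of them is made. In the pancreas, Hnf4a is a well-known endodermal regulator, and Hnf4g belongs to the same family.

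Levels are log2 processed intensity minus the array's 75th percentile, so that 0 is that percentile, and a gene's level is that of its brightest probe. Levels of different genes come from different probes and were not compared. The ADM, duct and acinar arrays had 49.7%, 50.03% and 40.7% of 55664 probes well above background, and their 75th-percentile signal was 72.2, 95.7 and 35.2 intensity units. The acinar array had the lowest percentile, so scaling raised its levels against those of the other arrays. Differences below acinar are therefore smaller in the unscaled signal, and those above acinar larger. The lowest level that still counted as well above background was −3.15 on the ADM, −3.28 on the duct and −2.04 on the acinar array, so a dim receptor was harder to see in acinar cells. Acinar markers summed to 6785 times the 75th percentile on the ADM array, 1344 times on the duct array and 21613 times on the acinar array. Duct markers summed to 33.3 times on ADM, 96.2 times on duct and 13.01 times on acinar, although Cftr, a defining duct gene, was not well above background on any array. Macrophage markers summed to 175 times on the ADM, 45.1 times on the duct and 61.1 times on the acinar array, with 11 of 11, 11 of 11 and 9 of 11 well above background. Fibroblast and stellate cell markers summed to 337 times on ADM, 327 times on duct and 85.6 times on acinar. Smooth muscle markers summed to 8.94 times on ADM, 28.0 times on duct and 8.17 times on acinar. Islet cell markers summed to 1166 times on ADM, 652 times on duct and 745 times on acinar. All 7 of them were well above background on each array, and 4 were at least 2-fold higher and 0 lower in ADM against acinar. Fewer cells of a type and less RNA per cell cannot be told apart in such samples, and the part of these other cells in the receptor differences was not tested.

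Most nuclear receptors were measurable in these cells. Signal well above background was found for 33 of the 44 members in ADM, 33 in duct and 27 in acinar cells (75%, 75% and 61.4%). Over all named genes those shares were 61.3%, 61.3% and 50.9%. All 3 arrays detected 26 members in this sense. The ADM and duct arrays, but not the acinar array, detected 5 more, Nr1d1, Nr1h4, Nr2f2, Rara and Rarb. Hnf4g and Pgr were seen on the duct array alone, Nr3c2 on the ADM array alone, and Nr4a2 on the ADM and acinar arrays. The remaining 9 stayed at background throughout. They were Esrrb, Esrrg, Nr0b1, Nr1h5, Nr2e1, Nr2e3, Nr4a3, Thrb and Vdr.

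**Figure D1:**
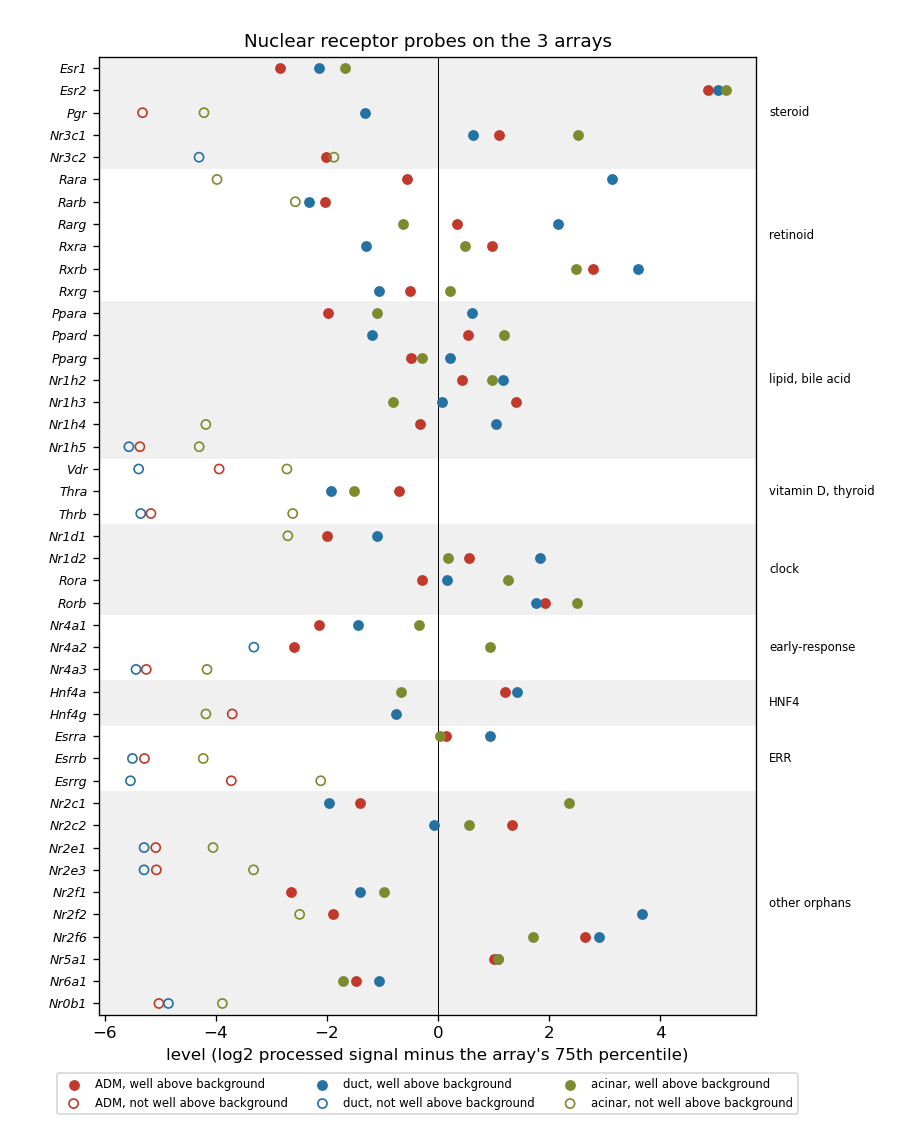
Level of each nuclear receptor named here on the ADM, duct and acinar arrays, in log2 units relative to the array's 75th percentile (x axis), by receptor class (y axis). Filled points were well above background and open points were not. Nr2f2 and Rara stand apart on the duct array, at 3.68 and 3.14, and Nr2c1 and Nr4a2 on the acinar array, at 2.35 and 0.94.

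As a class the receptors differed between the cells about as often as other genes. A receptor entered a comparison if either array had its probe well above background, and a difference was counted at 2-fold. A side that was not well above background was set to the lowest such level of its array or its own level, whichever was higher, and the difference is then a bound, written as "at least". For ADM against acinar, 4 of 33 compared receptors (12.1%) were at least 2-fold higher, against 21.8% of 13632 genes, and 7 (21.2%) were at least 2-fold lower, against 22% of genes. For ADM against duct, 6 of 35 (17.1%) were higher, against 21.6% of 14475 genes, and 10 (28.6%) were lower, against 24.8%. For duct against acinar, 11 of 34 (32.4%) were higher, against 27.4% of 13826 genes, and 8 (23.5%) were lower, against 24.6%. The median receptor difference was 0, −0.45 and 0.36 log2 units in the order of these comparisons, and the median over all compared genes was 0, −0.05 and 0. The 3 comparisons share arrays and are not independent. The results below are therefore about which receptors differed, not about the number that did.

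**Figure D2:**
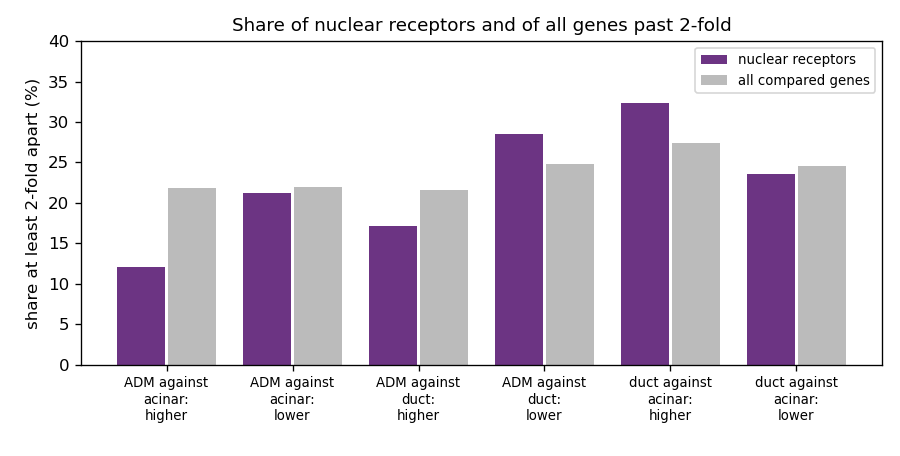
Share of compared nuclear receptors (purple) and of all compared genes (grey) that were at least 2-fold higher or lower in each comparison, in percent (y axis). Receptors ran from 12.1% to 32.4% and all genes from 21.6% to 27.4%.

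**Figure D3:**
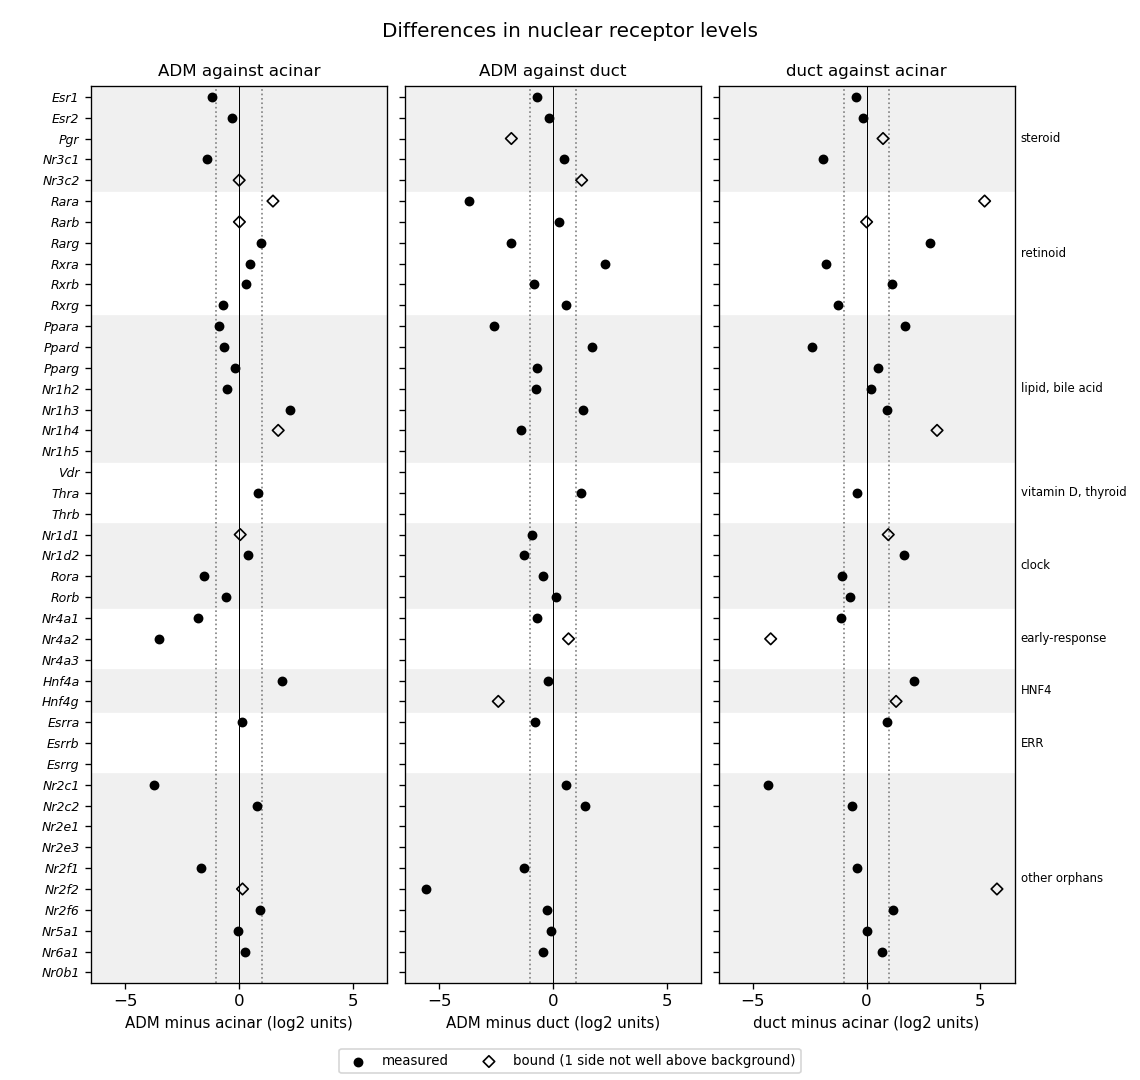
Difference of each receptor named here in log2 units (x axis) for ADM against acinar, ADM against duct and duct against acinar, 1 receptor per line. Filled circles were measured on both arrays, open diamonds are bounds, and dotted lines mark 2-fold. Lines without a symbol were not well above background on either array. Nr2f2 lies at −5.58 for ADM against duct and at a bound of 5.72 for duct against acinar.

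Among the steroid hormone receptors, Nr3c1, Esr1, Nr3c2 and Pgr passed 2-fold in at least 1 comparison and Esr2 in none. Nr3c1, the glucocorticoid receptor, had a level of 1.102 in ADM, 0.62 in duct and 2.53 in acinar cells. It was highest on the acinar array, 2.69-fold lower in ADM against acinar (difference −1.43) and 3.75-fold lower in duct against acinar (−1.91). Unscaled, its signal was 155 in ADM, 147 in duct and 203 intensity units in acinar cells, inside 2-fold. Its second probe was not highest on the acinar array. There the levels were −0.23 in ADM, −1.17 in duct and −3.92 in acinar, the last not well above background. That probe was at least 1.81 log2 units higher in ADM against acinar, so the direction of Nr3c1 depends on the probe. Esr1, estrogen receptor alpha, was at −2.85 in ADM, −2.15 in duct and −1.67 in acinar. It was dim on all 3 arrays and 2.27-fold lower in ADM against acinar. Scaling each array to its median in place of its 75th percentile moved this inside 2-fold (−0.96). Unscaled, the Esr1 signal was 10.01 in ADM and 11.09 intensity units in acinar cells, inside 2-fold. The size of that difference thus depends on the scaling. The other Esr1 probes were not well above background on any array. Pgr, the progesterone receptor, was at −1.32 in duct and not well above background in ADM (−5.32) or acinar cells (−4.22), at least 3.54-fold lower in ADM against duct. Its other probe was not well above background on any array, and with both averaged the bound was 0. Nr3c2, the mineralocorticoid receptor, was at −2.01 in ADM and not well above background in duct (−4.31) or acinar cells (−1.88). It was at least 2.40-fold higher in ADM against duct, while its bound against acinar was 0. Esr2, estrogen receptor beta, differed little, with 4.86 in ADM, 5.04 in duct and 5.19 in acinar cells on its 1 probe. With normexp background correction, an alternative whose fixed offset draws dim signals together, the ADM differences from acinar were −0.82 for Nr3c1 and −0.47 for Esr1. The ADM differences from duct were −0.50 for Pgr and 0.41 for Nr3c2, so these 4 calls ended there.

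Chaperones that hold steroid receptors in a ligand-binding state lay mostly within 2-fold. Of 10 genes, 1 was at least 2-fold higher and 0 lower in each comparison. St13 was 1.17 log2 units higher in ADM against acinar (3.15 against 1.98), Fkbp4 was 1.47 higher in ADM against duct (3.67 against 2.20), and Dnajb1 was 1.41 higher in duct against acinar (4.93 against 3.52). Genes of glucocorticoid metabolism and known glucocorticoid targets were mixed. Of 14 compared for ADM against acinar, 3 were higher, 4 lower and 7 within 2-fold (median −0.46). Over all compared genes 21.8% were higher and 22% lower. Counts of this and the other lists are to be read beside such shares, given above for each comparison. The enzyme Hsd11b1, which regenerates active glucocorticoid, differed by −2.08 log2 units (−1.53 in ADM against 0.55 in acinar). The largest differences the other way were Klf9 (at least 1.94), Nfkbia (1.73) and Dusp1 (1.71). For ADM against duct, 3 of 14 were higher and 5 lower (median −0.08), led by Zbtb16 (−3.45), Per1 (−3.33), Klf9 (at least 3.17) and Hsd11b1 (−2.72). In duct against acinar 6 of 13 were higher and 4 lower (median 0.64), with Tsc22d3 at 2.94, Zbtb16 at 2.67, Errfi1 at 2.40 and Sgk1 at −1.76.

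The retinoic acid receptors Rara and Rarg were high in duct cells. Rara, retinoic acid receptor alpha, was at −0.56 in ADM, 3.14 in duct and −3.98 in acinar cells, where it was not well above background. It was 12.98-fold lower in ADM against duct (difference −3.70) and at least 36.3-fold higher in duct against acinar. ADM lay between the other cells, at least 2.80-fold above acinar, a bound that shrank to 0.29 log2 units after normexp background correction. The second Rara probe was seen on the duct array alone (−3.73 in ADM, −1.29 in duct and −4.24 in acinar) and differed by −1.86 log2 units or lower for ADM against duct and by at least 0.76 for duct against acinar. With both probes averaged, Rara was at −3.07 for ADM against duct and at least 2.97 for duct against acinar, and its bound for ADM against acinar was 0. Rarg, retinoic acid receptor gamma, was at 0.34 in ADM, 2.17 in duct and −0.63 in acinar cells. It followed the same order, 3.56-fold lower in ADM against duct and 6.98-fold higher in duct against acinar. Rarb, itself a retinoic acid target, was at −2.03 in ADM, −2.32 in duct and −2.57 in acinar cells on its brightest probe, not well above background on the last. Its 2 other probes were brighter on the duct array than elsewhere. The second was at −5.43 in ADM, −0.11 in duct and −1.61 in acinar cells, and the other at −4.25 in ADM, 0.79 in duct and −4.09 in acinar cells. ADM was not well above background on either of these probes, and acinar cells were well above it only on the second. ADM minus duct was −3.04 or lower on the second and −3.94 or lower on the other. Both the detection of Rarb and its level in duct cells thus depend on the probe.

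Retinoid X receptors did not move together. Rxra was at 0.97 in ADM, −1.30 in duct and 0.48 in acinar cells, 4.83-fold higher in ADM against duct and 3.45-fold lower in duct against acinar. Unscaled, the Rxra signal was 38.8 in duct and 49.3 intensity units in acinar cells, inside 2-fold. Its second probe was seen on the duct array alone (−5.26 in ADM, −2.46 in duct and −1.98 in acinar) and put ADM minus duct at −0.69 or lower. Rxrb was at 2.79 in ADM, 3.61 in duct and 2.49 in acinar cells. It was the highest on duct of the 3 arrays, 2.18-fold above acinar, with ADM within 2-fold of both. Rxrg was at −0.50 in ADM, −1.06 in duct and 0.21 in acinar cells, 2.42-fold lower in duct against acinar. The unscaled signal of this Rxrg probe was 51.2 in ADM, 45.8 in duct and 40.7 intensity units in acinar cells, so its higher acinar level comes with the array scaling, and array median scaling put the duct difference at −0.89. With normexp correction the duct differences from acinar were −0.86 for Rxra and −0.66 for Rxrg, inside 2-fold.

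Of 17 compared genes that handle retinoids or respond to retinoic acid, 7 were at least 2-fold higher in ADM against acinar and 2 lower (median 0.60, against 0 over all genes). The retinoic acid-degrading enzymes Cyp26b1 and Cyp26a1 were at least 1.72 and 1.65 higher. The retinol dehydrogenase Rdh11 (−2.45 or lower) was lower. For ADM against duct 6 of 17 were higher and 5 lower (median −0.04). Fabp5, a fatty acid-binding protein that can also carry retinoic acid, was 4.16 higher in ADM (4.83 against 0.67), and Cyp26a1 at least 2.88 higher. Crabp1, the cellular retinoic acid-binding protein, differed by −3.47 and Rarres2, which encodes chemerin, by −3.003. In duct against acinar 7 of 14 were higher and 3 lower (median 1.01), with Fabp5 at −5.09, Crabp1 at least 2.75, Tgm2 at 2.68 and Dhrs3 at 2.67.

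Among receptors for lipids, sterols and bile acids, Nr1h3 was highest in ADM and Nr1h4 in duct. Nr1h3, which encodes LXR alpha, the oxysterol receptor of macrophages and liver, was at 1.40 in ADM, 0.07 in duct and −0.82 in acinar cells. It was 4.65-fold higher in ADM against acinar and 2.51-fold higher in ADM against duct. A second Nr1h3 probe gave 1.28 in ADM, −0.23 in duct and −0.71 in acinar cells, with differences of 1.99 and 1.51 log2 units. After normexp correction the first difference stayed past 2-fold (1.27) and the second did not (0.86). Macrophage markers were also highest on the ADM array, where 9 of the 11 were at least 2-fold above acinar and 9 at least 2-fold above duct. Their part in the Nr1h3 difference was not tested. Nr1h2, LXR beta, was at 0.43 in ADM, 1.18 in duct and 0.96 in acinar cells, within 2-fold throughout.

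Nr1h4, which encodes the bile acid receptor FXR, was at −0.33 in ADM, 1.05 in duct and −4.18 in acinar cells, not well above background on the last. It was 2.60-fold lower in ADM against duct, at least 3.28-fold higher in ADM against acinar and at least 8.54-fold higher in duct against acinar. The first of these fell to −0.84 log2 units after normexp correction and the second to 0.51, both inside 2-fold. Nr1h5, a pseudogene in humans that in mouse encodes a lanosterol-responsive relative, was not well above background on any array. Genes known as LXR or FXR targets, with other sterol genes, were measured in 9 or 10 of 19 cases. The bile acid genes Abcb11, Slc51a, Slc51b, Fgf15 and Cyp7a1 were among those at background on all 3 arrays. For ADM against acinar 4 of 9 were higher and 2 lower (median 0.98), led by the phospholipid-remodelling enzyme Lpcat3 (at least 3.51), the apolipoprotein Apoe (2.04), the sterol transporter Abcg5 (−1.50 or lower) and the desaturase Scd1 (1.30). For ADM against duct 2 of 10 were higher and 2 lower (median −0.63), namely Scd1 (2.72), Apoe (2.40), Srebf1 (−2.84) and Cyp7b1 (−2.40 or lower). Apoe is also abundant in macrophages. Duct against acinar gave 5 of 10 higher and 2 lower (median 1.04), with Lpcat3 at least 4.28, Srebf1 at least 3.49, Abca1 at 1.92 and Mylip at 1.72.

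Of the peroxisome proliferator-activated receptors, Ppara was highest in duct on its brightest probe, and Ppard was lowest there. Ppara, a regulator of fatty acid oxidation, was at −1.99 in ADM, 0.61 in duct and −1.09 in acinar cells. It was 6.03-fold lower in ADM against duct and 3.25-fold higher in duct against acinar. The second Ppara probe also lay lower in ADM than in duct (bound −1.20), but on it duct minus acinar was −1.63 log2 units. Normexp correction left the brightest probe's duct difference from acinar at 0.80. Ppard, a broadly expressed regulator of fatty acid use, was at 0.54 in ADM, −1.19 in duct and 1.19 in acinar cells. It was lowest in duct, with ADM 3.32-fold above duct and duct 5.21-fold below acinar, and normexp correction left the first of these just inside 2-fold (0.99). Unscaled, the Ppard signal was 41.9 in duct and 80.4 intensity units in acinar cells, inside 2-fold, so the size of that difference depends on the scaling. Pparg, the regulator of fat cells that also acts in macrophages, was at −0.48 in ADM, 0.21 in duct and −0.30 in acinar cells, within 2-fold throughout. The fat cell genes Adipoq and Lep were not well above background on any array.

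PPAR targets and genes of fatty acid use were higher in ADM against acinar in 9 of 19 cases and lower in 2 (median 0.72). The lipid droplet protein Plin2 was at least 4.36 log2 units higher in ADM (2.32, against −4.05 in acinar, not well above background), the pyruvate dehydrogenase kinase Pdk4 at least 4.003 and the fatty acid transporter Cd36 at least 2.82. The peroxisomal enzyme Ehhadh went the other way, at 1.43 in acinar and not well above background in ADM (−4.58 or lower). Against duct 9 of 19 were higher in ADM and 6 lower (median 0.67). Fabp4 (4.09), Cd36 (at least 4.06) and Pdk4 (3.71) were higher, and Plin4 (−4.13 or lower) was lower. Duct against acinar gave 8 of 17 higher and 3 lower (median 0.93), with Ehhadh at −4.70 or lower, Lpl at −3.58 and Plin4 at least 3.03. Cd36 and Fabp4 are also known from macrophages and endothelium, and the part of those cells was not tested.

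Vitamin D and thyroid hormone receptors were mostly at background. Vdr was not well above background on any array (−3.94, −5.39 and −2.72 in ADM, duct and acinar), nor was the thyroid hormone receptor Thrb (−5.17, −5.36 and −2.62). Of the vitamin D and xenobiotic target list 4 genes could be compared for ADM against acinar and 5 in each other comparison. For ADM against acinar the calcium channel Trpv6 differed by −3.15 log2 units and the calcium-binding S100g by −1.03, and no gene was higher. In ADM against duct the vitamin D-binding protein Gc was at least 4.58 and S100g at least 2.34 higher, and none was lower. In duct against acinar 3 of 5 were lower, Gc (−4.52 or lower), S100g (−3.37 or lower) and Trpv6 (−3.06), and 0 were higher.

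Thra, the broadly expressed thyroid hormone receptor alpha, was at −0.70 in ADM, −1.94 in duct and −1.51 in acinar cells, 2.35-fold higher in ADM against duct. Its second probe ran the opposite way and was seen on the duct array alone (−3.04 in ADM, 1.61 in duct and −2.85 in acinar), with ADM minus duct at −4.65 log2 units or lower, so no direction can be given for Thra, and normexp correction left the first probe at 0.53. Of 7 compared thyroid hormone genes, 4 were at least 2-fold lower in ADM against duct and 1 was higher (median −1.007). Hr, a corepressor gene and classical thyroid hormone target, differed by −3.40 or lower, the malic enzyme Me1 by −2.85 and Thrsp by 1.14. In duct against acinar 3 of 7 were higher and 0 lower (median 0.68), led by Me1 at 4.61 and Hr at least 2.29. For ADM against acinar 1 of 6 was higher, Me1 (1.77), and 1 lower, the deiodinase Dio1 (−1.12).

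Of the receptors of the circadian clock, Nr1d2 was highest in duct, and Rora was lower in ADM than in acinar cells. Nr1d2, the clock repressor REV-ERB beta, was at 0.56 in ADM, 1.84 in duct and 0.19 in acinar cells. It was 2.42-fold lower in ADM against duct and 3.13-fold higher in duct against acinar, past 2-fold after normexp correction too (−1.02 and 1.27). Its relative Nr1d1, REV-ERB alpha, was at −2.00 in ADM, −1.09 in duct and −2.71 in acinar cells, not well above background on the last. The Nr1d1 difference of ADM against duct was −0.91, and the bound of duct against acinar was 0.95, both inside 2-fold. Rora, ROR alpha, was at −0.28 in ADM, 0.17 in duct and 1.27 in acinar cells, 2.93-fold lower in ADM against acinar and 2.14-fold lower in duct against acinar. Its unscaled signal was 59.3 in ADM, 107.6 in duct and 84.9 intensity units in acinar cells, so the order of duct and acinar comes with the array scaling. The second of these differences was inside 2-fold with array median scaling (−0.71), and both were so after normexp correction (−0.69 and −0.47). The second Rora probe was not well above background on any array. Rorb, ROR beta, best known from retina and brain, was at 1.93 in ADM, 1.77 in duct and 2.51 in acinar cells. On this brightest probe Rorb lay within 2-fold throughout. Its second probe was at −1.45 in ADM, −2.62 in duct and −1.50 in acinar cells, well above background on each. There ADM minus duct was 1.17 and duct minus acinar −1.12 log2 units, both past 2-fold.

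Most of the compared clock partners and outputs were lower on the ADM array. Of 11, 7 were at least 2-fold lower in ADM against acinar and 1 higher, with a median of −1.30 log2 units against 0 over all genes. Against duct 8 of 11 were lower in ADM and 2 higher, with a median of −1.79 against −0.05. Per2 was not well above background in ADM (−4.54), at 2.60 in duct and at 1.62 in acinar cells, a difference of −5.75 or lower against duct and −4.76 or lower against acinar. Clock (−2.49), Per3 (−2.08) and Per1 (−1.60) were lower in ADM than in acinar cells. Per1 (−3.33) and Cry2 (−2.77) were lower in ADM than in duct. Nfil3, a repressor of clock outputs, was at least 3.82 higher in ADM against duct. For duct against acinar 6 of 11 were higher and 2 lower (median 1.12), with Nfil3 at −5.11 or lower, Ciart at 1.99, Bhlhe40 at least 1.92 and Bhlhe41 at −1.88. Arntl, Npas2, Cry1 and Hlf were not well above background on any array. The labels do not give the hour of day at which tissue was taken.

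Nr4a2 was high in acinar cells among the Nr4a receptors, orphan receptors that many stimuli switch on within minutes to hours. It was at −2.59 in ADM, −3.32 in duct, not well above background there, and 0.94 in acinar cells. Nr4a2 was 11.54-fold lower in ADM against acinar (difference −3.53) and at least 18.6-fold lower in duct against acinar. A second Nr4a2 probe gave −2.99 in ADM, −3.38 in duct and −0.17 in acinar cells, with ADM at −2.81 and duct at −3.10 or lower against acinar. Nr4a1 was at −2.15 in ADM, −1.44 in duct and −0.34 in acinar cells, 3.52-fold lower in ADM against acinar and 2.15-fold lower in duct against acinar. Unscaled, the Nr4a1 signal was 16.3 in ADM, 35.3 in duct and 27.9 intensity units in acinar cells. The lower duct level thus comes with the array scaling, and array median scaling moved the duct difference to −0.72. ADM lay below acinar unscaled too, but inside 2-fold, so the size of that difference also depends on the scaling. After normexp correction the ADM differences from acinar were −0.67 for Nr4a1 and −0.99 for Nr4a2, and the duct differences were −0.60 for Nr4a1 and −1.32 for Nr4a2. Nr4a3 was not well above background on any array (−5.26, −5.44 and −4.16 in ADM, duct and acinar).

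The promoters of these 3 genes share a short motif. The 5 letters TGACG, or CGTCA on the other strand, are the core of the cyclic AMP response element TGACGTCA, of which they form part. Among RefSeq promoters on GRCm38.p6, 17.8% of 32851 stretches of 250 bases before a gene start held TGACG on either strand, and 13 of the 59 listed promoters of 39 receptors did. At least 4 copies were found in 45 promoters (0.137%), among them those of Nr4a1, Nr4a2 and Nr4a3 and of no other of these 39. That number of copies was chosen after the counts were seen. The complete element TGACGTCA, in 1.55% of promoters, was in none of these 3 stretches, and among the receptors only in that of Nr2e1. The stretches are chr15:101266596-101266845 (plus strand) for Nr4a1, chr2:57124004-57124253 (minus strand) for Nr4a2 and chr4:48045055-48045304 (plus strand) for Nr4a3, printed 5′ to 3′ with TGACG or CGTCA in capitals.
Nr4a1: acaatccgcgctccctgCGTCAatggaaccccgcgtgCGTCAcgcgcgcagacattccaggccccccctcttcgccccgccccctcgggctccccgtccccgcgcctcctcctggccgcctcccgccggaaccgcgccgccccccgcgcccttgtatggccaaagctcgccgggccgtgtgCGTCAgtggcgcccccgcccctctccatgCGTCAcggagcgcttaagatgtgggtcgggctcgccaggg
Nr4a2: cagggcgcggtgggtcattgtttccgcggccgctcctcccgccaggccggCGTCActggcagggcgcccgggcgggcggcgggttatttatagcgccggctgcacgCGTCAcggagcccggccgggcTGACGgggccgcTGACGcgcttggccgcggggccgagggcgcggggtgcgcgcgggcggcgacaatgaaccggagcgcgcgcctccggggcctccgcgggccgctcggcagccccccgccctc
Nr4a3: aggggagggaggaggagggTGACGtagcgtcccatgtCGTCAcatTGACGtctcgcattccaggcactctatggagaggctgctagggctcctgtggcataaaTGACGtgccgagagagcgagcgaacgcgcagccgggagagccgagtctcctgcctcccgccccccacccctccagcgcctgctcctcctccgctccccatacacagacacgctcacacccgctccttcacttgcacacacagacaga
The motif count was the same in all 3 genes, while Nr4a1 and Nr4a2 were measured on the acinar array and Nr4a3 was at background there. A match of letters does not show that a factor was bound.

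The HNF4 receptors were lower in acinar than in duct cells, and for Hnf4a ADM resembled duct. Hnf4a was at 1.22 in ADM, 1.42 in duct and −0.66 in acinar cells. It was 3.68-fold higher in ADM against acinar and 4.24-fold higher in duct against acinar, while ADM and duct differed by −0.21 log2 units. Both differences from acinar stayed past 2-fold after normexp correction (1.04 and 1.29). Hnf4a had 1 probe, so no second probe bears on this. Hnf4g was at −0.75 in duct and not well above background in ADM (−3.71) or acinar cells (−4.18). It was at least 5.27-fold lower in ADM against duct and at least 2.45-fold higher in duct against acinar, but normexp correction put these at −0.44 and 0.10. Of the estrogen-related receptors, which control mitochondrial genes, Esrra was at 0.14 in ADM, 0.94 in duct and 0.04 in acinar cells. It lay within 2-fold in each comparison, and Esrrb and Esrrg were at background on all 3 arrays.

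Nr2f2 was far higher in duct than in the other cells. It encodes COUP-TFII, an orphan receptor known from veins, lymphatic vessels and stroma. Nr2f2 was at −1.90 in ADM, 3.68 in duct and −2.49 in acinar cells, not well above background on the last. It was 47.8-fold lower in ADM against duct and at least 52.9-fold higher in duct against acinar, and these differences were −3.73 and 3.48 after normexp correction. ADM and acinar cells could not be told apart on this probe (bound 0.15). The duct array also had the highest sum of smooth muscle markers, of endothelial markers and of nerve and Schwann cell markers. Endothelial markers were at 14.3 times the 75th percentile in ADM, 21.4 times in duct and 15.2 times in acinar cells, with 7, 7 and 4 of 9 well above background. Of 8 endothelial markers compared for ADM against duct, 5 were lower and 2 higher, Pecam1 (at least 2.71) and Tie1 (1.12). Fibroblast and stellate cell markers were not highest on duct, at 337 times in ADM, 327 times in duct and 85.6 times in acinar cells. The part of all these cells in the Nr2f2 difference was not tested. Its relative Nr2f1, COUP-TFI, was at −2.66 in ADM, −1.41 in duct and −0.96 in acinar cells. It was lowest in ADM, 3.23-fold below acinar and 2.38-fold below duct, and both were inside 2-fold after normexp correction (−0.64 and −0.25). Nr2f6, another COUP-type receptor, was at 2.65 in ADM, 2.89 in duct and 1.72 in acinar cells, 2.26-fold higher in duct against acinar.

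Nr2c1, a testicular orphan receptor, was high in acinar cells on its brightest probe. Its level was −1.40 in ADM, −1.97 in duct and 2.35 in acinar cells, 13.5-fold lower in ADM and 20.0-fold lower in duct against acinar. The second Nr2c1 probe gave −2.58 in ADM, −1.37 in duct and −4.16 in acinar cells, not well above background on the last, where duct was at least 0.68 log2 units higher. The acinar difference of Nr2c1 thus rests on 1 of its probes. Its relative Nr2c2 was at 1.34 in ADM, −0.07 in duct and 0.56 in acinar cells, 2.67-fold higher in ADM against duct. A second Nr2c2 probe was seen on the ADM array alone (−1.02 in ADM, −5.46 in duct and −4.24 in acinar) and was at least 2.26 log2 units higher than in duct. With normexp correction the brightest probe was at 0.96, just inside 2-fold. Nr5a1, the steroidogenic regulator of adrenal and gonad, was at 1.01 in ADM, 1.08 in duct and 1.08 in acinar cells on its 1 probe. Nr6a1, the germ cell nuclear factor, was at −1.48 in ADM, −1.06 in duct and −1.72 in acinar cells, within 2-fold throughout. Nr2e1, known from neural stem cells, Nr2e3, from photoreceptors, and Nr0b1, from adrenal and gonad, were at background on all 3 arrays.

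The second probes show how far single differences can be read. For ADM against acinar 4 of the 11 receptors past 2-fold had a second probe that could be compared. Of these 4, Nr1h3 and Nr4a2 were past 2-fold the same way, Nr3c1 the opposite way, and Nr2c1 had a bound of 0. The second probes of Esr1, Nr2f1, Rora and Rara were not well above background on either array, so they do not back those differences. For ADM against duct 7 had a second probe that could be compared. Of these, 5 were past 2-fold the same way, among them Nr1h3, Nr2c2, Ppara and Rara. The second probes of Nr2f1 and Pgr were not well above background on either array. Thra was past 2-fold the opposite way, and Rxra had the opposite direction inside 2-fold (−0.69 or lower). For duct against acinar 8 had a second probe that could be compared, and that of Rora was not well above background on either array. Of the 8, 2 were past 2-fold the same way, Nr4a2 among them, and Rara had the same direction inside 2-fold. Ppara was past 2-fold the opposite way, Nr3c1 (at least 0.87) and Nr2c1 (at least 0.68) had the opposite direction inside 2-fold, and Rxra and Rxrg had a bound of 0.

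**Figure D4:**
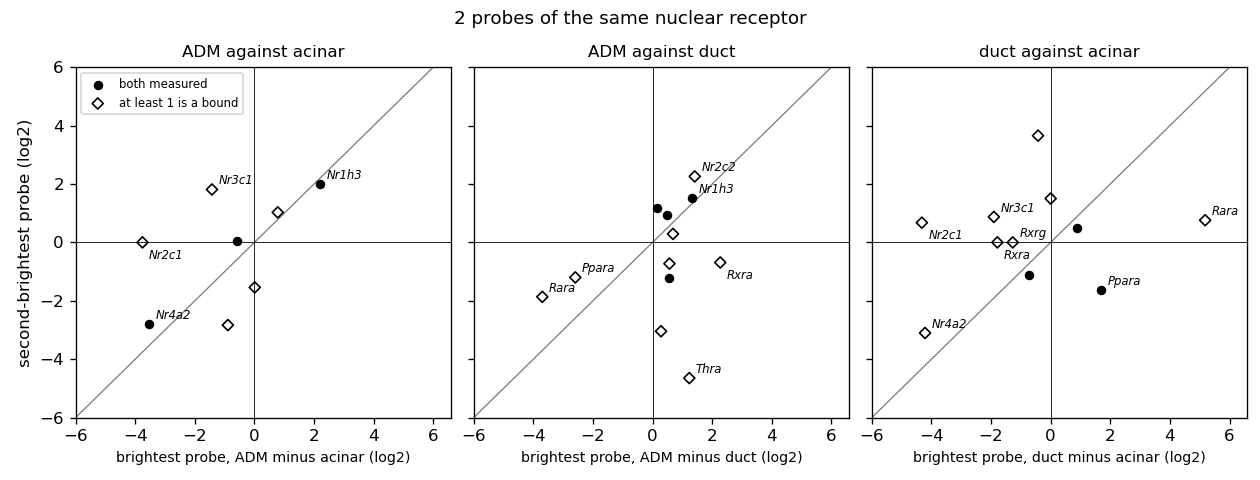
Difference given by the brightest probe (x axis) and by the second-brightest probe (y axis) of the same receptor, in log2 units, for the named receptors with both probes compared. Open diamonds have at least 1 bound, the diagonal marks equality, and receptors past 2-fold on the brightest probe are named. Nr1h3 and Nr4a2 lie near the diagonal, and Nr3c1, Thra, Nr2c1 and Ppara lie in opposite quadrants or on the axis in at least 1 comparison.

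Of the coregulators, the proteins that receptors recruit to activate or silence genes, 11 of 20 were at least 2-fold higher in duct against acinar and 4 lower, with a median of 1.19 log2 units against 0 over all genes. Pprc1 (−2.96) and the acetyltransferase Kat2b (−2.63) were lower, and the corepressor subunits Tbl1xr1 (at least 2.60) and Gps2 (2.50) higher. For ADM against duct 2 of 21 were higher and 9 lower, with a median of −0.84 against −0.05. Ppargc1a, the coactivator of mitochondrial and fasting genes, was not well above background in ADM (−5.36), at 1.104 in duct and at 2.22 in acinar cells, a difference of −4.25 or lower against duct and −5.37 or lower against acinar. The other large differences of ADM against duct were Ncoa7 (at least 3.09), Gps2 (−2.81) and the deacetylase Sirt1 (−2.76). For ADM against acinar 3 of 20 were higher and 5 lower (median −0.19), with Carm1 at −2.27, Pprc1 at −2.00 and Ncoa7 at least 1.86.

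**Figure D5:**
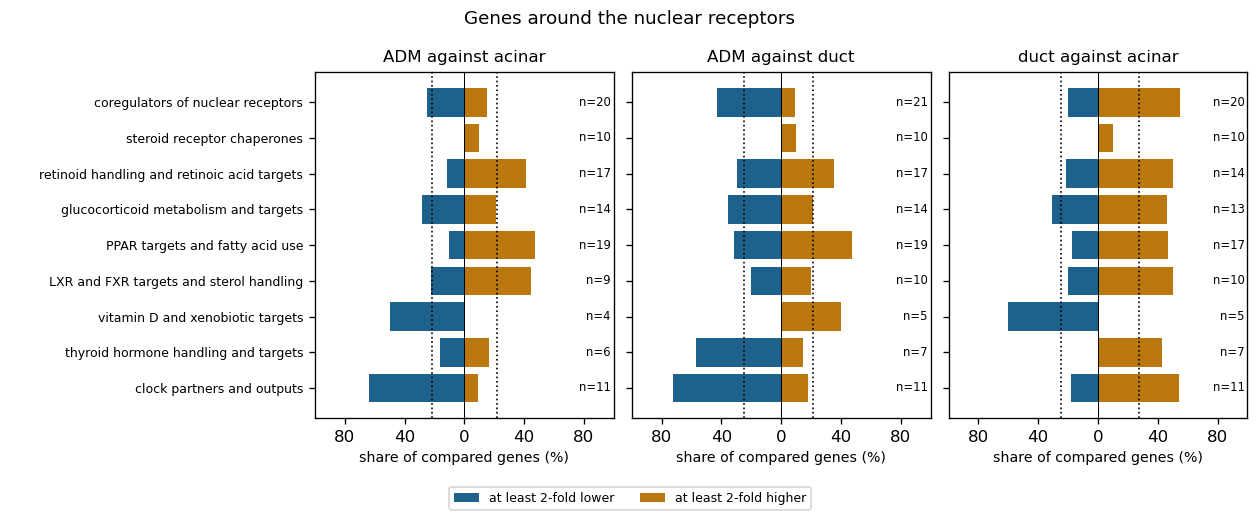
Share of the compared genes of each list around the receptors that were at least 2-fold higher (right, orange) or lower (left, blue), in percent (x axis), for the 3 comparisons. Dotted lines mark the share over all genes, and n is the number of genes compared. Clock partners reach 7 of 11 and 8 of 11 lower in ADM, and coregulators 11 of 20 higher in duct against acinar.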

How the data were processed

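Per the labels' protocols, total RNA of the 3 groups was amplified and labelled with Cy3. Per the file headers and the submitters' processing notes, Agilent Feature Extraction 11.5.1.1 made the deposited scanner tables, whose processed signal is an intensity on a linear scale, background-subtracted by the authors' software. Deposited flags of 0 or 1 (another unit, neither intensity nor log2) marked saturated spots, outlier spots and spots well above background. The deposited table of log2 values matched the log2 processed signal within 0.001 after 1 constant per array and served as an alternative.

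Of 62976 spots per array, 3671 controls and 110 to 117 outlier spots were left out. Repeat spots were averaged on the log2 scale and the 75th percentile over all 55664 probes was subtracted. A probe counted as well above background when most of its spots did. The median SD between repeat spots was 0.113 (ADM), 0.0931 (duct) and 0.130 log2 units (acinar), and the scanner's error of a measured receptor had a median of 0.15. No spot was saturated. Probes were named by RefSeq accession through a gene table of GRCm38.p6, used for names only since the array was annotated on mm9; 28020 matched and 27644 stayed unnamed. Calculations used Python 3.11.15 with pandas 2.3.3 and numpy 2.4.6, matplotlib 3.10.9 for plots, and limma 3.58.1 in R 4.3.3 for normexp (offset 50, on median spot and background intensity, since no mean intensity was in the tables). The procedure was tested on simulated data. The receptors, gene lists and settings were chosen with earlier results of these data known. Of the 44 receptors, 1 is not reported here by name, nor are some list genes, although all stay in the counts and medians. Each other receptor is named, and of each list up to 4 genes a comparison with the largest difference past 2-fold; genes named only as not well above background were chosen after their values were seen.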

Additional observations from a re-analysis of the deposited data

How the results depend on the processing

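With 1 array per group no array could be left out. No paired analysis was possible because each group had 1 array and no result comes from a test. Of 9 alternatives, 6 moved a count of receptors by over 1.5 times. The lists of genes around the receptors and the cell markers were not put through these alternatives. How far their counts and medians, those of clock partners and coregulators included, depend on the processing was not tested. The counts below without a total are of the 33, 35 and 34 receptors compared for ADM against acinar, ADM against duct and duct against acinar. With normexp, whose offset draws dim signals together, 1 receptor was lower in ADM against acinar, 1 higher and 6 lower in ADM against duct, and 4 lower in duct against acinar. Over all genes 6.8% were lower in the first comparison, 10.2% higher and 14.8% lower in the second, and 10.8% lower in the third. With array median scaling 8 were higher in ADM against acinar and 5 lower in duct against acinar, beside 25.8% and 18.6% of all genes. That scaling shifted the median of all genes to −0.20 for ADM against duct and 0.28 for duct against acinar, and the share of receptor calls that were higher to 57.1% for ADM against acinar and 76.2% for duct against acinar, against 36.4% and 57.9% with 75th-percentile scaling (all genes 58.9% and 64.7%, against 49.7% and 52.7%). Averaging all probes of a receptor, 5 were lower in duct against acinar, beside 24.8% of all genes. In this setting Nr3c1 was at 1.13 for ADM against acinar and 0.42 for duct against acinar. Rxra was at −0.26 and Thra at −1.71 for ADM against duct, and Rxrg at 0.34 for duct against acinar. With the second-brightest probe, which 19 receptors have, 7, 11 and 6 were well above background on the ADM, duct and acinar arrays. There 4 of 9 compared were lower in ADM against acinar, 3 of 13 higher and 6 of 13 lower in ADM against duct, and 3 of 12 higher and 3 of 12 lower in duct against acinar. Over all genes with a second probe these shares were 24.6%, 29.1%, 24.2%, 24.5% and 29.5% in the same order. Nr3c1 turned to 1.81 for ADM against acinar and 0.87 for duct against acinar, Rxra to −0.69 and Thra to −4.65 for ADM against duct, and Nr2c1 to 0.68 and Ppara to −1.63 for duct against acinar. Restricted to probes well above background on all 3 arrays, 2 of 26 were higher in ADM against acinar, 5 of 26 lower in ADM against duct and 7 of 26 higher in duct against acinar. The shares of all genes so restricted were 17.7%, 21.5% and 24.1%. With neither filter nor bound 17 of 44 were lower in ADM against acinar and 17 of 44 in duct against acinar. Of all 21150 genes 37.7% and 41.7% were then lower, so this rise was not particular to receptors. Quantile normalization, the other percentile and the authors' deposited log2 table kept each count within 1.5 times. Past 2-fold with normexp and each of the 3 other scalings were 2 of 4 higher and 1 of 7 lower in ADM against acinar (Hnf4a and Nr1h3, and Nr2c1), 1 of 6 and 6 of 10 in ADM against duct (Rxra, and among the lower ones Nr1d2, Nr2f2, Ppara, Rara and Rarg), and 9 of 11 and 4 of 8 in duct against acinar.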
